A study of Mus musculus with 3 samples.

Results

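The SNAIL (Snai1, Snai2, Snai3), ZEB (Zeb1, Zeb2) and TWIST (Twist1, Twist2) genes encode the transcription factors best known for driving epithelial-mesenchymal transition (EMT), the loss of epithelial contacts for a motile state. Their levels are described here in B16 cells, a mouse melanoma line, into which an empty vector was stably introduced (Mock). The members were taken by gene symbol from the 17285 rows of the deposited count table. Of the 7 genes, 5 have a row, and Twist1 and Twist2 have none, so their expression was not analysed here. RNA of 3 samples was sequenced. All carry the Mock label (replicates 1, 2 and 3), so no conditions are compared. Nothing in the labels says whether the line is 1 clone or a pool, which vector it carries, or whether the samples grew as separate cultures, and the extraction note speaks of organs although the source is the cell line. P-values on levels and ratios therefore weigh a distance against the spread of these 3 samples or counting error, and that spread may be technical. A further test, named where used, weighs the spread itself against counting error.

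SNAIL and ZEB proteins are zinc finger repressors that bind E-box DNA and silence epithelial genes such as that of E-cadherin, Cdh1. TWIST proteins are basic helix-loop-helix (bHLH) factors that pair with E proteins. In the pigment lineage these factors are not simply on or off: ZEB2 and SNAI2 are known from neural crest and melanocyte development, and work mainly on human melanoma has described a switch of phenotype in which ZEB1 and TWIST1 take their place.

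The microRNAs of the miR-200 family are the best known repressors of ZEB messages, and ZEB genes are known for many matches to them. Their mature sequences (RefSeq, GRCm38.p6) are shown with the seed, bases 2 to 8, in capitals, the first 3 sharing one seed and the last 2 the other.
miR-200b-3p: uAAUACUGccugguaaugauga
miR-200c-3p: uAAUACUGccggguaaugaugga
miR-429-3p: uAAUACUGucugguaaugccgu
miR-200a-3p: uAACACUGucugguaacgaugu
miR-141-3p: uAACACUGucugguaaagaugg
Matches to either seed were counted in the 3' UTR of the longest coding transcript of each gene (GENCODE M21). Zeb2 held 5 matches to the first seed and 4 to the second in a 3' UTR of 4941 bases. The Zeb1 3' UTR, of 2401 bases, likewise held 5 and 4. Among 16420 genes of the table with a 3' UTR, 13.99% held any match to the first seed and 18.61% any match to the second, at a median length of 1028 bases. The density of the first seed was 1.01 matches per kilobase in Zeb2 and 2.08 in Zeb1, against 0.111 over all these 3' UTRs. Snai2 held 1 match to each seed in 1089 bases, or 0.918 per kilobase for each, Snai1 held 1 match to the first seed in 731 bases, and Snai3 held none in 645 bases. Matches are letters in a sequence, and microRNA levels were not analysed here.

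The Zeb2 and Snai2 messages had the most reads of the members with a row, so 1 match per seed in each is shown in context, of the 9 in Zeb2 and 2 in Snai2 (GRCm38, read 5' to 3' along the message, match in capitals).
Zeb2, chr2:44988167-44988192 (minus strand): actaccatacatCAGTATTttattat
Zeb2, chr2:44988351-44988376 (minus strand): aaaaattttgtaCAGTGTTaaggcct
Snai2, chr16:14708711-14708736 (plus strand): caaccaaaggaaCAGTATTtcttctt
Snai2, chr16:14708295-14708320 (plus strand): gagtggcgcaacCAGTGTTtactcaa

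The reads of the 5 members with a row came almost entirely from Zeb2. Zeb2 collected 663, 759 and 760 reads in replicates 1, 2 and 3, which is 70.8, 80.4 and 80.6 CPM (CPM is the count scaled to a common library size after TMM adjustment, and 1 CPM was 9.36 to 9.43 reads here). Replicate 1 was the lowest of the libraries, and all 3 lay far above 1 CPM, the fixed level against which each gene was tested. The mean was 77.3 ± 5.60 CPM (SD, n = 3, as for all CPM values), a log2 distance of 6.27 from 1 CPM (adjusted p = 4.33e-13, quasi-likelihood test of edgeR with Benjamini-Hochberg adjustment). Zeb2 lies on chromosome 2, 44983632 to 45117395, minus strand (GRCm38), and its longest annotated transcript has 11 exons. The antisense gene Zeb2os lies within this span at 45110707 to 45114087 and has no row of its own. Use of strand in counting is not given in the sources used here, so reads of the antisense partner could be among those of Zeb2.

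Snai2, the SNAIL gene of neural crest and melanoblasts (also called Slug), was the only other measured member above 1 CPM. It had 45, 56 and 45 reads, or 4.81, 5.94 and 4.77 CPM, with replicate 2 the highest. The mean of 5.17 ± 0.661 CPM was above 1 CPM by the same edgeR test (log2 distance 2.37, adjusted p = 2.77e-07). Snai2 occupies chromosome 16 from 14705852 to 14709385, plus strand, in 3 exons. Of the 5 members with a row, 3 had reads and were tested, and 2 of those were above 1 CPM, where 74.3% of all 14408 genes tested were called above. Over rows with and without reads, this is 40% of the 5 members and 62.0% of all 17285 rows.

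Zeb1, the paralog of Zeb2, was close to the detection limit. It had 6, 4 and 2 reads, or 0.641, 0.424 and 0.212 CPM, so every library was below 1 CPM. The mean of 0.426 ± 0.214 CPM was called below 1 CPM by edgeR (log2 distance -1.23, adjusted p = 0.0182), making 1 of 3 tested members below, where 20.2% of all genes tested were. Over all rows this is 20% of the 5 members and 16.8% of the table. This call was lost without replicate 2 (adjusted p = 0.0874) and without replicate 3 (0.0886), and also by DESeq2's Wald test (0.0950). The adjusted p ran from 4.56e-04 (against 2 CPM) to 0.622 (against 0.5 CPM) over the alternatives. Zeb1 lies on chromosome 18, 5591860 to 5775467, plus strand. The gene Gm10125, on the minus strand at 5491503 to 5593505, overlaps its start, and Gm16147 and Gm22709 lie within its span. None of these has a row, so their reads could be among the few of Zeb1. In bulk RNA, fewer cells that transcribe a gene and less RNA per cell cannot be told apart, which applies to Zeb1 and to every other gene near the limit.

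The remaining SNAIL genes, Snai1 and Snai3, had no read in any of the 3 libraries. Snai1 encodes the founding SNAIL repressor of the E-cadherin gene and Snai3 a paralog. No reads in the group allow up to 0.106 CPM each (3 counts over the 3 libraries, counting error only). In reads, Zeb2 was at least 727-fold higher than either gene, and Snai2 at least 48.7-fold higher. Snai1 lies on chromosome 2, 167538195 to 167542814, plus strand, and Snai3 on chromosome 8, 122454208 to 122460733, minus strand. Both are short, at 1621 and 1628 bases of merged exon. None of the 5 members had fractional counts.

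**Figure D1:**
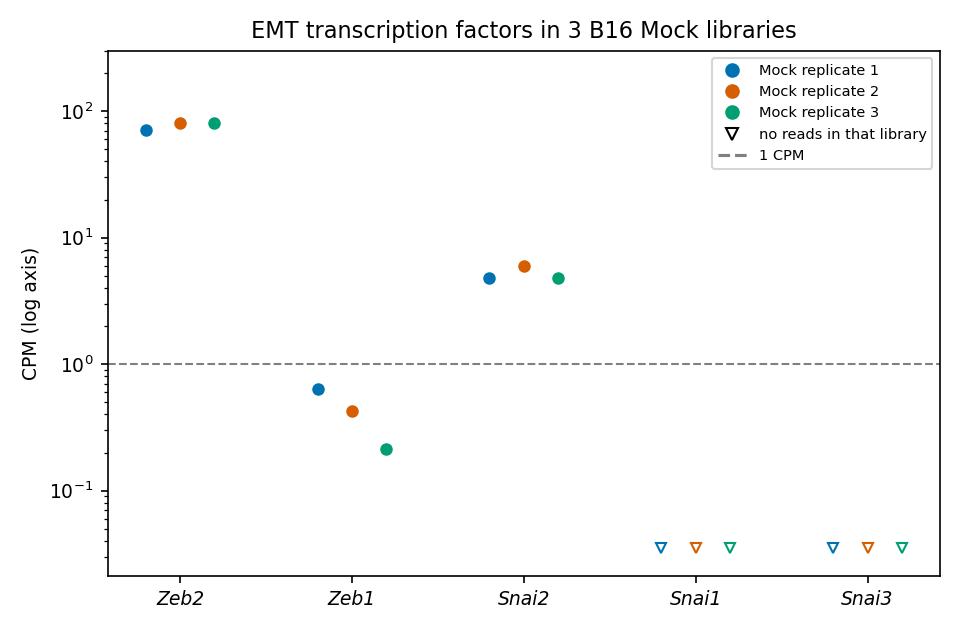
CPM (log axis) of the 5 measured EMT factors, each point 1 of the 3 Mock libraries. Open triangles mark libraries with no reads, drawn at the foot of the axis and not at a measured level, and the dashed line is 1 CPM. Zeb2 lies between 70.8 and 80.6 CPM, Snai2 between 4.77 and 5.94 CPM, Zeb1 below 1 CPM in every library, and Snai1 and Snai3 have no reads.

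As a share of the 2340 reads of the 5 members with a row, Zeb2 held 92.9%, 92.7% and 94.2% in replicates 1, 2 and 3. Snai2 held 6.30%, 6.84% and 5.58%, and Zeb1 0.840%, 0.488% and 0.248%. The pooled shares were 93.2% for Zeb2 (exact 95% binomial interval 92.2% to 94.2%), 6.24% for Snai2 (5.29% to 7.30%) and 0.513% for Zeb1 (0.265% to 0.894%). The order of the 3 genes was thus the same in each library. Whether counts spread between libraries by more than counting error was tested with a Poisson deviance test for the 11000 genes with a mean count of 10 or more. Neither Zeb2 (adjusted p = 0.222) nor Snai2 (adjusted p = 0.781) was called. That is 0 of 2 members (1 of them, Zeb2, at an unadjusted p under 0.05), where 3.31% of all genes tested were called. At low counts this test finds only large spreads, so the lack of a call does not show steady levels.

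Reads depend on transcript length, and the ZEB messages are long, so the members were also compared per kilobase of exon. Zeb2 has 19942 bases of merged annotated exon and a longest transcript of 9124 bases, whereas Snai2 has 2021 bases by either measure. Per kilobase of merged exon Zeb2 stood at 3.88 ± 0.281 CPM and Snai2 at 2.56 ± 0.327 CPM. The log2 ratio of Zeb2 over Snai2 on this scale was 0.56, 0.45 and 0.76 in replicates 1, 2 and 3, a mean of 0.59 ± 0.16, or 1.51-fold (95% interval of limma 1.22 to 1.86, adjusted p = 1.83e-04, higher in 3 of 3 libraries). By the same limma rule, 58% of the 14096 genes tested lay above Snai2. Without replicate 3 the adjusted p was 0.0527 at 1.42-fold, and over the alternatives it ran from 9.55e-186 (reads, with no length) to 0.0527. All genes in such a fit share the Snai2 counts, which limma treats as if they were independent between genes. These intervals and p-values are therefore likely too narrow and too small for 3 libraries. The choice of length mattered more than the libraries: per kilobase of the longest transcript Zeb2 stood at 8.47 ± 0.613 CPM, and its ratio to Snai2 was 3.29-fold (2.71 to 3.995). In reads alone the ratio was 14.9-fold. The lead of Zeb2 in reads was therefore much smaller per kilobase, by either length.

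The gap between the ZEB paralogs, in contrast, was wide on every scale. Per kilobase of merged exon, Zeb1 stood at 0.0415 ± 0.0209 CPM. The log2 ratio of Zeb2 over Zeb1 per kilobase was 5.72, 6.44 and 7.29 in replicates 1, 2 and 3, with a mean of 6.48 ± 0.79, or 89.4-fold (95% interval of limma 43.2 to 185, adjusted p = 2.34e-33). It was higher in 3 of 3 libraries. Every gene compared with Zeb1 shares its few counts, which limma treats as if they were independent between genes. The limma intervals and p-values against Zeb1 are therefore likely too narrow and too small for 3 libraries. By the same rule, 83.4% of all genes tested lay above Zeb1 per kilobase, so a place above Zeb1 is common in this table. Pooled reads gave 93.6-fold per kilobase with an exact interval of 53.5 to 181 from counting alone. Per kilobase of the longest transcript the ratio was 110-fold, and in reads 174-fold. Snai2 also lay above Zeb1, by 59.4-fold per kilobase of merged exon (28.6 to 123, adjusted p = 9.70e-28 by limma). Its ratio was 33.6-fold per kilobase of the longest transcript and 11.7-fold in reads. All 3 ratios rest on 0.5 added to each count, which matters for the 12 reads of Zeb1: with 2 added, Zeb2 over Zeb1 was 65.0-fold.

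**Figure D2:**
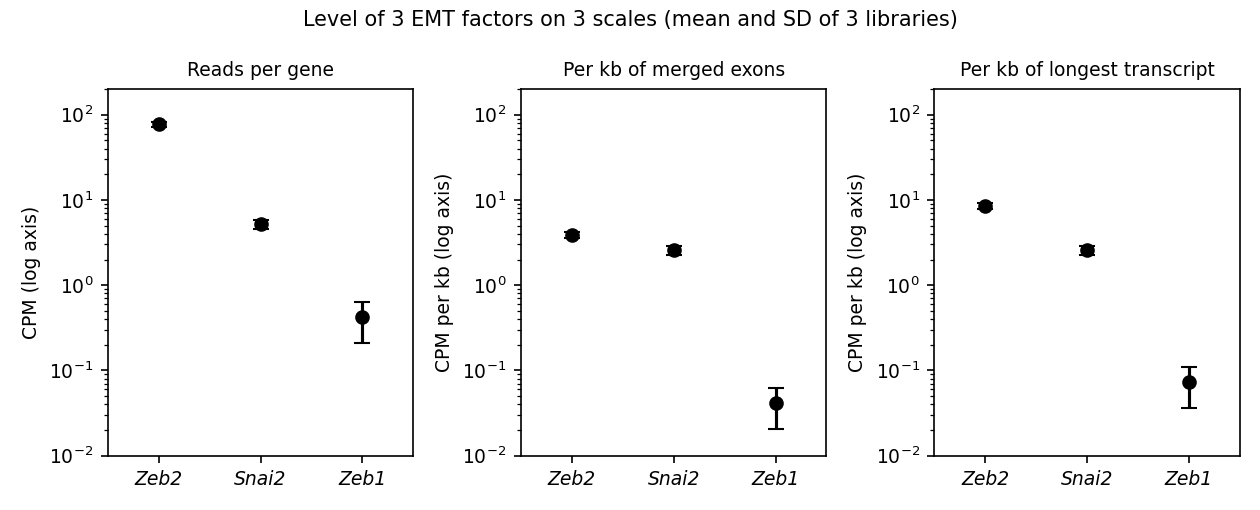
Level of Zeb2, Snai2 and Zeb1 as CPM, as CPM per kilobase of merged annotated exon and as CPM per kilobase of the longest annotated transcript (log axes). Points are means and bars SDs of the 3 Mock libraries. The order is the same in all 3 panels, while Zeb2 and Snai2 draw close per kilobase of merged exon, at 3.88 and 2.56 CPM.

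The order of levels per kilobase was therefore Zeb2, Snai2 and Zeb1. Below them, no order could be given for Zeb1, Snai1 and Snai3: the 3 counts that no reads allow correspond to 0.0656 CPM per kilobase in Snai1 and 0.0653 in Snai3, which is above the measured 0.0415 of Zeb1. Among all rows with a length, with or without reads, Zeb2, Snai2 and Zeb1 stood at percentiles 54.3, 48.7 and 26.0 per kilobase of merged exon. By CPM the percentiles were 81.2, 43.3 and 32.7. Per kilobase of merged exon Zeb2 and Snai2 were thus mid-range among all rows. Both lay below the median of 4.92 CPM per kilobase over all genes tested. With a single condition, the level itself is the only pattern to match over the 3 libraries. Mean log2 levels per kilobase of merged exon were compared with those of 109 genes of the related lists described below. The nearest were the ubiquitin ligase gene Fbxw7 for Zeb2 (3.47 CPM per kilobase) and Thbs1, of the matrix protein thrombospondin, for Snai2 (2.54). Per kilobase of the longest transcript Zeb2 stood at 8.47 and Fbxw7 at 5.47 CPM, so that match depended on the length used. Thbs1 stood at 2.64 CPM on that scale and Snai2 at 2.56. For Zeb1 the nearest was set by the 0.5 added to each count, so none is named.

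Windows from 250 bases before to 50 bases after each start (RefSeq, GRCm38.p6) were searched on both strands for CACCTG, the E-box letters that ZEB and SNAIL proteins prefer, and for the general E-box CANNTG, which includes it. Of 32851 such windows in the mouse genome, 20.2% held CACCTG and 72.3% held CANNTG. The Snai1 window, shown because the gene had no reads, held 1 CACCTG, here in capitals, which was also its only CANNTG, and had a GC content of 70.0% with 34 CG pairs.
Snai1, chr2:167537945-167538244 (plus strand): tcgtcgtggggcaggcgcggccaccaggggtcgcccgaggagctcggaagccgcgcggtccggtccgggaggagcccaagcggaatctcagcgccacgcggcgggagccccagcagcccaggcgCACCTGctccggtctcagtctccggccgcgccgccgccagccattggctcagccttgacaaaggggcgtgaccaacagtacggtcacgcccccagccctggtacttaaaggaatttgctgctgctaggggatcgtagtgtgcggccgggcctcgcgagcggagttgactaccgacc
All 4 windows at annotated Zeb2 starts, a pair of which overlap, held neither motif. The window farthest upstream, shown for the most abundant measured member, had a GC content of 49.3% with 9 CG pairs. The other windows of Zeb2 had 52.7%, 52.7% and 60.7% GC, the last with 19 CG pairs, where the median of all windows was 52.7%.
Zeb2, chr2:45117393-45117692 (minus strand): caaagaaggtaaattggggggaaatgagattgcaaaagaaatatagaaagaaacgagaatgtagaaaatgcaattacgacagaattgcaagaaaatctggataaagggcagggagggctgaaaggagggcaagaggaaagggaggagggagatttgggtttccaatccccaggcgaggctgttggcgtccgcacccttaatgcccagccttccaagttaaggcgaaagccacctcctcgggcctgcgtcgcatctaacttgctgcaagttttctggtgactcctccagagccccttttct
Both Twist windows, at 66.0% GC for Twist1 and 64.7% for Twist2, held neither motif, and the other members were not matched, so 4 of the 7 members had a window. These are descriptions of letters: binding was not measured.

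The counts of called genes in each list below are to be read against all rows of the table, of which 62.0% were above 1 CPM and 16.8% below by edgeR. Of 7 bHLH partners and inhibitors, 5 were above 1 CPM (71.4%) and 2 below (28.6%). All 7 had reads, and these shares lie near the 74.3% and 20.2% of genes tested. The list median was 63.1 CPM, against 23.6 CPM over all genes tested and 12.6 CPM over all rows. The E protein genes, whose products pair with TWIST, reached 132 ± 7.51 CPM for Tcf12, 103 ± 3.46 CPM for Tcf3 and 63.1 ± 3.73 CPM for Tcf4. Id2, an inhibitor that binds E proteins and keeps them off DNA, led the list at 201 ± 10.3 CPM. Its relatives Id1 and Id4 had 10 and 2 reads in all and were called below 1 CPM (adjusted p = 0.00812 and 0.00160). The call on Id1 was lost without replicate 3 (adjusted p = 0.0615) and by DESeq2 (0.0668).

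All 16 corepressor genes through which SNAIL and ZEB proteins act were above 1 CPM (100%, against 62.0% of all rows), with a list median of 151 CPM. The helicase gene Chd4 of the NuRD complex reached 757 ± 22.8 CPM, Ctbp1, whose product binds ZEB proteins, 350 ± 4.67 CPM, and the LIM protein gene Ajuba, a SNAIL partner, 207 ± 10.7 CPM. Ctbp2, the second CtBP gene, stood at 81.8 ± 2.87 CPM. Fractional counts of Ajuba make its level less certain. Of 13 genes for the turnover of these proteins, 11 were above 1 CPM (84.6%, against 62.0% of all rows), led by the ubiquitin ligase gene Stub1 at 156 ± 5.14 CPM (also with fractional counts), the kinase gene Lats2 at 121 ± 7.60 CPM and the F-box gene Fbxo11 at 116 ± 5.19 CPM. The kinase gene Pak1 was below with 3 reads in all, and the deubiquitinase gene Usp51 had none. The list median was 52.9 CPM.

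Of 19 genes for signals that induce the factors, 16 were above 1 CPM, 2 below and 1 without reads, with a median of 67.9 CPM. That is 84.2% above and 10.5% below, against 62.0% and 16.8% of all rows. Ybx1, of a cold shock domain protein, stood at 1536 ± 19.1 CPM, Hif1a of the hypoxia response at 182 ± 6.51 CPM and Smad4, the shared SMAD of TGF-beta signalling, at 134 ± 1.55 CPM (fractional counts). The ligand genes Tgfb1 and Tgfb2 had 11 and 8 reads and were called below 1 CPM (adjusted p = 0.0111 and 0.00725), and the receptor gene Fgfr1 had no reads. The calls on Tgfb1 and Tgfb2 were lost without replicate 3 (adjusted p = 0.0615 and 0.0798) and by DESeq2 (0.0760 and 0.0502). That on Tgfb2 was lost also without replicate 2 (0.0515). In contrast, the ligand gene Tgfb3, named after its values were seen, stood at 35.0 ± 0.960 CPM. It was above 1 CPM by edgeR (adjusted p = 1.70e-12).

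**Figure D3:**
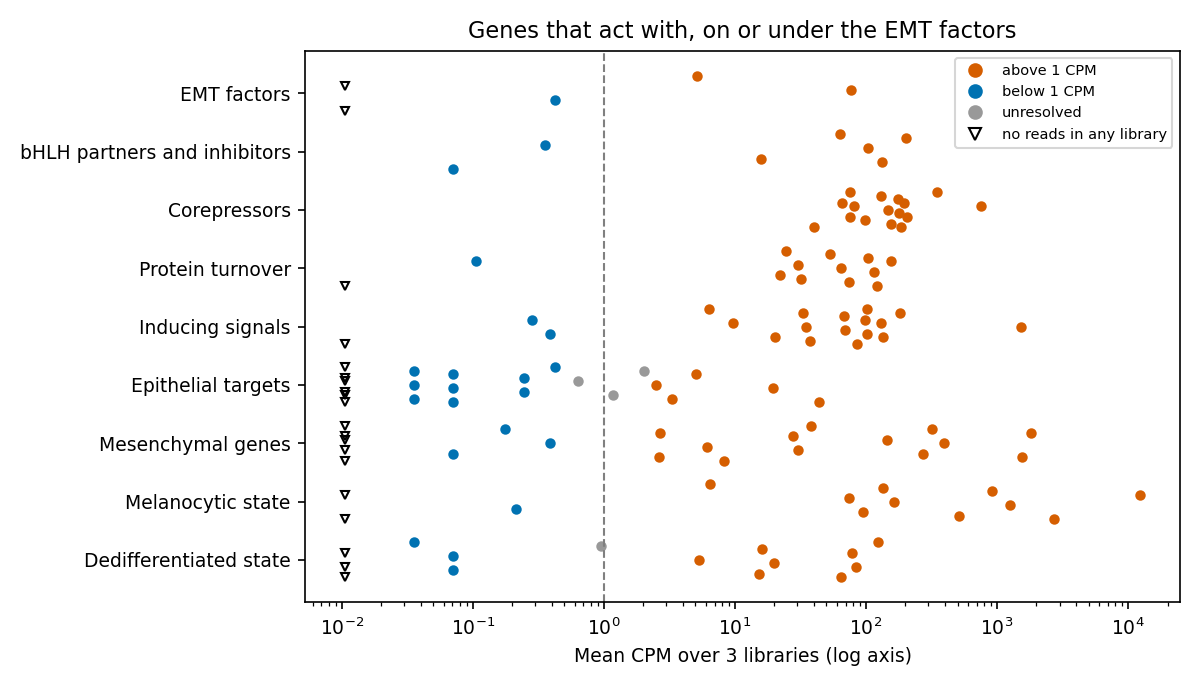
Mean CPM over the 3 Mock libraries (log axis) of each gene with a row, by list, coloured by its call against 1 CPM (dashed line). Open triangles at the left edge are genes with no reads in any library, and vertical scatter within a list carries no value. All 16 corepressor genes lie right of 1 CPM. The list labelled Epithelial targets, which also holds other epithelial genes, has the lowest median of the lists shown, 0.0712 CPM.

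An epithelial list combined known targets of SNAIL or ZEB proteins, such as Cdh1, with other epithelial genes. Of its 23 measured genes, 5 were above 1 CPM, 9 below, 3 unresolved and 6 had no reads. That is 21.7% above and 39.1% below, against 62.0% and 16.8% of all rows. Their median was 0.0712 CPM, against 12.6 CPM over all rows. E-cadherin itself, Cdh1, had 13, 12 and 8 reads, or 1.17 ± 0.284 CPM, and was unresolved against 1 CPM (adjusted p = 0.435). The P-cadherin gene Cdh3 and the claudin gene Cldn3 had no reads, and the claudin genes Cldn4 and Cldn7 had 1 read each (adjusted p = 6.10e-04 for each, lost by DESeq2 at 0.0695). The 5 genes above 1 CPM were the polarity genes Llgl2 and Patj, at 43.8 ± 1.68 and 19.4 ± 2.27 CPM, the tight junction gene Tjp3, at 2.51 ± 0.578 CPM (adjusted p = 2.73e-04), and the keratin genes Krt8 and Krt18. Tjp3, named after its values were seen, remained above 1 CPM with each replicate left out. Krt8 had 93, 13 and 36 reads, or 5.04 ± 4.41 CPM. Krt18 and Krt19, named after their values were seen, had 61, 6 and 26 and 35, 4 and 18 reads. All 3 keratins were highest in replicate 1 and lowest in replicate 2, a spread beyond counting error by the Poisson deviance test (adjusted p = 8.47e-14 for Krt8, 6.24e-10 for Krt18 and 7.04e-05 for Krt19). Both Krt8 and Krt18 were above 1 CPM with all libraries (adjusted p = 0.00112 and 0.00734). Without replicate 1 they were unresolved (0.105 and 0.369), which left 3 epithelial genes above, and Krt18 was unresolved also without replicate 3 (0.110). Krt19 was unresolved with all libraries (adjusted p = 0.0531) and above 1 CPM without replicate 2 (0.0236). Zeb2 was lowest in replicate 1, where these keratins were highest. In replicates 2 and 3, however, Zeb2 stood at 80.4 and 80.6 CPM while Krt8 stood at 1.38 and 3.82 CPM. Whether Zeb2 and the keratins are related was not tested.

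Of 21 measured mesenchymal genes, 13 were above 1 CPM, 3 below and 5 without reads, with a median of 6.13 CPM. The shares, 61.9% above and 14.3% below, lie near those of all rows (62.0% and 16.8%). The intermediate filament gene Vim reached 1830 ± 12.4 CPM, the matrix protein gene Sparc 1553 ± 50.2 CPM and Cdh2, of N-cadherin, 392 ± 4.86 CPM. Acta2 and Tagln, of the contractile apparatus, the collagen gene Col3a1 and the matrix protease gene Mmp3 had no reads. Other collagen and matrix protease genes of the list, named after their values were seen, were mostly above 1 CPM. These were Mmp14 at 272 ± 8.34, Mmp2 at 30.2 ± 1.03, Col1a2 at 27.6 ± 1.39 and Col1a1 at 8.29 ± 1.62 CPM, while Mmp9 was below with 5 reads. The deviance test also called Sparc varying between libraries (adjusted p = 2.88e-05), lowest in replicate 1.

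**Figure D4:**
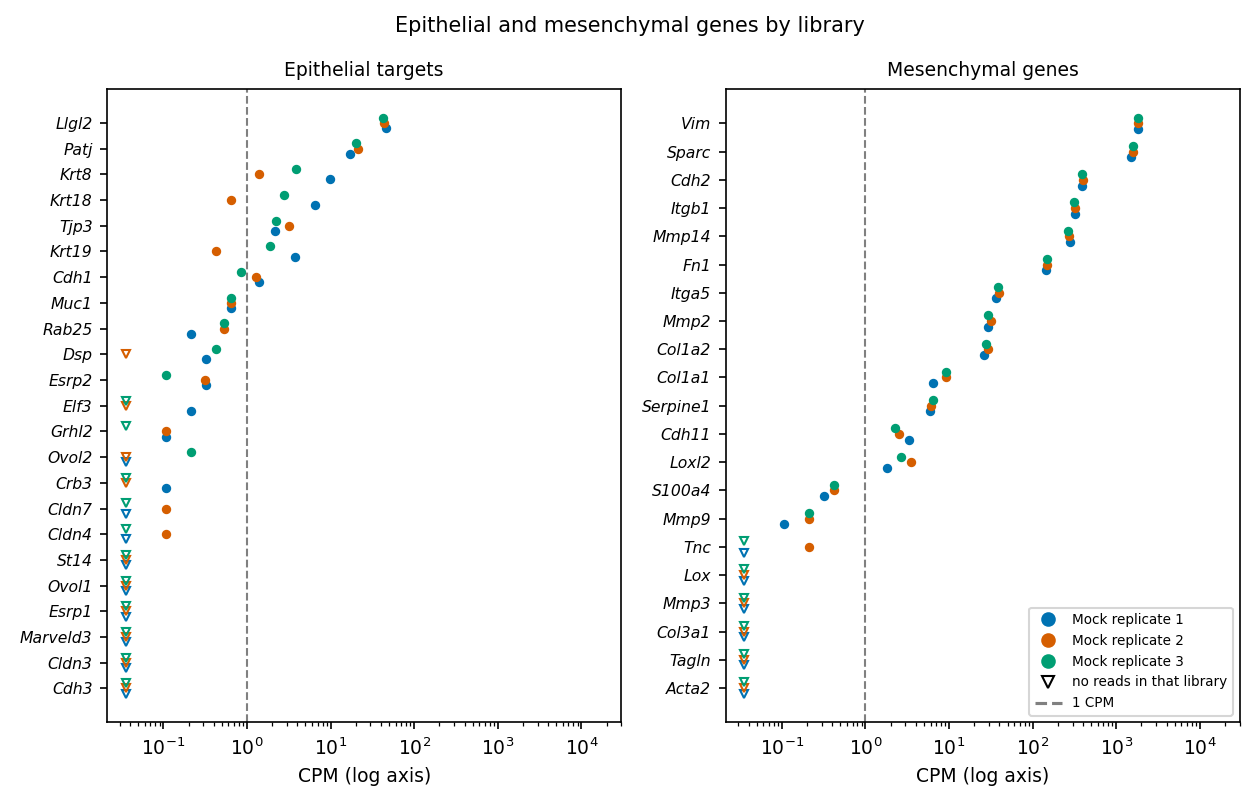
CPM (log axis) of epithelial and mesenchymal genes by gene, each point 1 of the 3 Mock libraries. Open triangles mark libraries with no reads and the dashed line is 1 CPM. Krt8, Krt18 and Krt19 are highest in replicate 1 and lowest in replicate 2. The points of the highest mesenchymal genes nearly coincide on this axis, although Sparc too varied beyond counting error.

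Of 13 genes of the melanocytic state, 10 were above 1 CPM, 1 below and 2 without reads, with a median of 135 CPM, against 12.6 CPM over all rows. That is 76.9% above and 7.69% below, against 62.0% and 16.8% of all rows. The pigment genes Tyrp1, Dct and Pmel led at 12337.4 ± 399, 2713 ± 47.7 and 1258 ± 66.6 CPM. The lineage factor Sox10 stood at 510.0 ± 36.7 CPM and Mitf, the main melanocyte transcription factor, at 135 ± 6.80 CPM. Beyond counting error, Tyrp1 (adjusted p = 4.02e-50), Pmel (2.19e-12), Sox10 (6.18e-09) and Dct (0.0171) varied between libraries by the deviance test, as did the corepressor gene Chd4 (0.0470). This test calls smaller relative spreads at higher counts. Relative to their means, the SDs of Tyrp1 and Dct were smaller than those of Zeb2 and Snai2, which were not called. Sox10 and Mitf exceeded Zeb2 per kilobase of merged exon, at 167 and 21.8 CPM, a difference that was not tested. Lef1, a Wnt effector, and the endothelin receptor gene Ednrb had no reads, and the receptor gene Kit had 6 in all (adjusted p = 0.00216, below 1 CPM).

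Of 15 measured genes of the dedifferentiated melanoma state, 8 were above 1 CPM, 3 below, 1 unresolved and 3 without reads, with a median of 5.31 CPM. The shares, 53.3% above and 20% below, compare with 62.0% and 16.8% of all rows. The TEAD factors, which act with YAP, led with Tead1 at 123 ± 4.26 CPM and Tead2 at 83.6 ± 1.91 CPM, and the receptor tyrosine kinase gene Axl reached 78.3 ± 1.02 CPM. In contrast, the neural crest receptor gene Ngfr and the receptor gene Egfr had 2 reads each (adjusted p = 7.24e-04 for each, below 1 CPM), and Wnt5a and the AP-1 gene Fosl1 had none. Sox9 was unresolved at 0.958 ± 0.469 CPM (adjusted p = 0.857), with 14, 6 and 7 reads. Per kilobase of merged exon Axl stood at 15.6 CPM and Zeb2 at 3.88 CPM, a difference that was not tested.

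**Figure D5:**
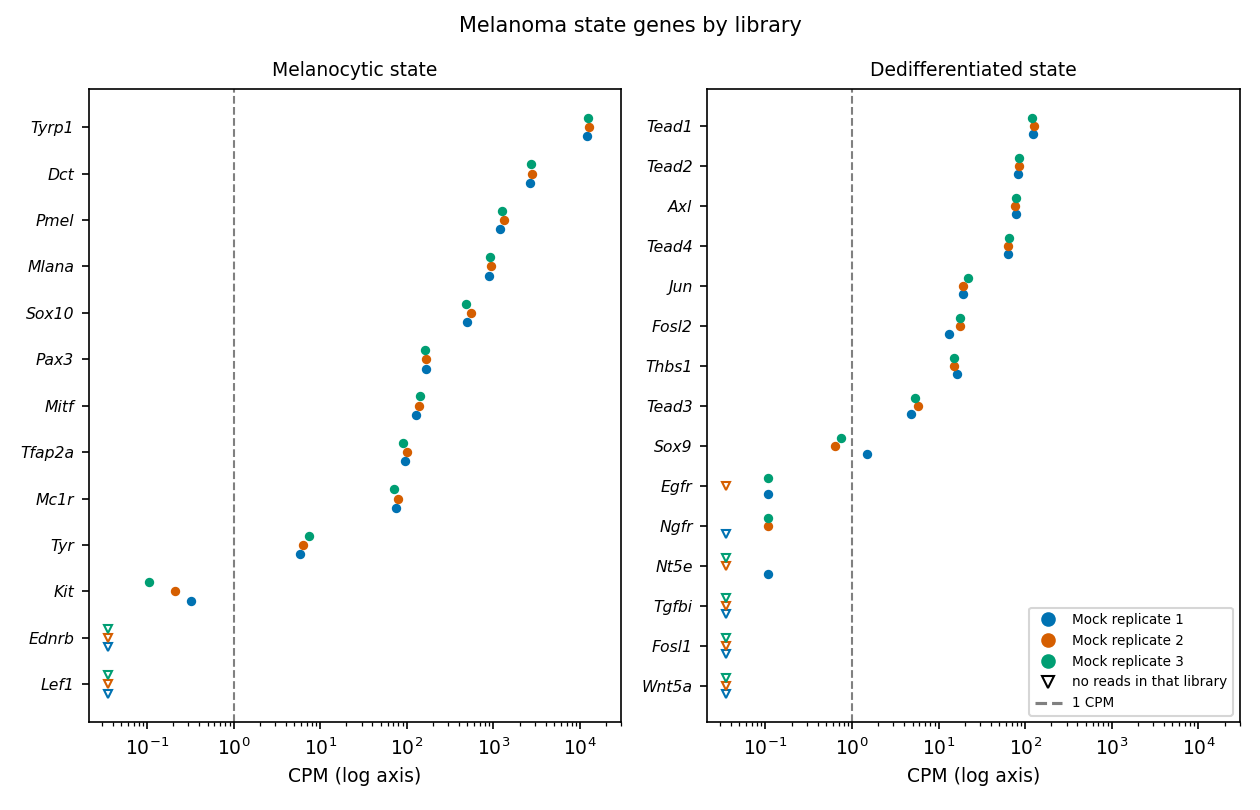
CPM (log axis) of melanocytic and dedifferentiated state genes by gene, each point 1 of the 3 Mock libraries. Open triangles mark libraries with no reads and the dashed line is 1 CPM. Tyrp1 is the highest gene shown, Axl lies near Tead2, and Wnt5a and Fosl1 have no reads in any library.

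The libraries were of even depth, at 9328087 to 9456501 counts. All 6 pigment cell markers were above 1 CPM, in a line labelled B16. Each of them is also among the 13 melanocytic genes described above, so this is no separate check. Of that longer list, Kit was below 1 CPM and Lef1 and Ednrb had no reads. ZEB and SNAIL genes are also transcribed in fibroblasts, macrophages, endothelium and keratinocytes. Of 8 fibroblast markers with a row, 2 were above 1 CPM, namely Pdgfrb, of a growth factor receptor, with 94 reads (3.33 ± 0.421 CPM, adjusted p = 8.96e-06) and the matrix protein gene Postn with 91 reads (3.22 ± 0.408 CPM, adjusted p = 1.24e-05). Pdgfra was below with 5 reads, and Dcn, Col3a1, Thy1, Fap and Col6a3 had none. The summed level of the 8 was 6.62, 6.57 and 7.0 CPM in replicates 1, 2 and 3, and their part in the levels of the EMT factors was not tested. Of the other markers with a row, none of 4 for macrophages and leukocytes, none of 6 for endothelium and none of 3 for keratinocytes was above 1 CPM. Their summed levels were 0 to 0.530, 0.106 to 0.214 and 0 to 0.212 CPM per library. Csf1r, Adgre1 and Tyrobp of macrophages and leukocytes, Cdh5 and Kdr of endothelium and Krt14 of keratinocytes had no reads.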

How the data were processed

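RNA of 3 B16 Mock samples was purified on spin columns and made into libraries by BGI, per the labels' protocols. Per the submitters' processing notes, the genome was GRCm38.p6. For the aligner, counting tool, annotation, filters and strand use, the sources used here give nothing. Deposited by the authors was 1 table of estimated counts per gene symbol, neither normalized nor pooled, in which 2270 of 17285 rows have values more than 0.005 from a whole number. Counts were rounded, which left 14408 rows with a count to test and 2877 without.

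Levels were set against 1 CPM in R 4.3.3. A model with an intercept alone and TMM factors was fitted by edgeR 4.0.16, and the F statistic was formed from that quasi-likelihood fit against a mean fixed at 1 CPM. Genes with a Benjamini-Hochberg adjusted p under 0.05 over all genes tested were called above or below it, and the rest unresolved. For ratios between genes, counts plus 0.5 were divided by kilobases of merged GENCODE M21 exons (GRCm38) in each library and tested across 14096 genes with limma 3.58.1. All 3 pairs of members with reads were compared, and each fit shares the counts of 1 denominator gene. Because limma treats the genes of a fit as independent, its intervals are likely too narrow and its p-values too small. Spread between libraries was tested with a Poisson deviance test. DESeq2 1.42.0 served as an alternative. The tests were also run on simulated counts, and the outcomes are not given here. Levels and ratios were simulated with a smaller spread between libraries than was fitted to these data. Ratios had a denominator gene of far more reads than Zeb1 or Snai2, so these runs do not cover the limma ratios reported here. For the deviance test, the genes made to vary had more reads than Snai2 or Zeb1, so its power at their counts was not checked. Plots used matplotlib 3.10.9.

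Members, lists and tests were chosen with earlier results of these data known. Genes named are all members, the 3 highest of each list, up to 4 called below 1 CPM or without reads, and a fixed set of 12 markers and partners, with exceptions stated. Twist1 and Twist2 have no row, so the planned ratio of Snai2 over Twist1 was not computed. Because the reads carry no stated molecular identifiers, exact intervals and limits for genes without reads speak of counting error alone. Intervals of limma come from the spread of ratios between libraries. Depth was 9328087 to 9456501 counts per library.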

Additional observations from a re-analysis of the deposited data

How the results depend on the processing

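Zeb2 and Snai2 were above 1 CPM under every alternative tried, including each library left out. The count of EMT factors called below 1 CPM, 1 with all settings as reported, was 0 by DESeq2's Wald test and 0 against 0.5 CPM, and 0 to 1 with each replicate left out. The log2 ratio of Zeb2 over Zeb1 per kilobase kept its direction and call, between 6.02 and 6.87 over the per-kilobase alternatives, and was 7.44 in reads with no length. For variation between libraries, Zeb2 and Snai2 were tested in every setting and Zeb1 with genes of at least 3 counts on average. None was called, and the unadjusted p of Zeb2 lay between 0.0149 and 0.0285 except without replicate 1 (0.970), by the Poisson deviance test and not an exact one. Of the lists, testing only genes with at least 10 counts removes low genes by construction and left these called below 1 CPM: 1 bHLH gene, 0 turnover genes, 1 epithelial, 1 mesenchymal and 1 inducing gene, 0 melanocytic and 0 dedifferentiated genes. DESeq2 left 1 bHLH, 4 epithelial and 0 inducing genes below, and the cause was not tested. Against 0.5 CPM these were 1 bHLH, 0 inducing and 0 melanocytic genes, and against 2 CPM 3 epithelial genes were above. With each replicate left out, bHLH genes below numbered 1 to 2, epithelial genes above 3 to 6 and below 5 to 6, and inducing genes below 0 to 2. Over all genes, calls below 1 CPM numbered 2907 with the reported settings, 409 among genes with at least 10 counts, 1453 by DESeq2, and 1835 to 2203 with each replicate left out. The Snai2 over Twist1 ratio could not be computed. No paired analysis was possible because all 3 samples form 1 group.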
